A study of Bos taurus with 12 samples.

Results

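Transcripts of cholesterol and fatty acid synthesis were followed in cultures of bovine chromaffin cells, which make and release catecholamines in the adrenal medulla. The set was a list of 37 genes of sterol synthesis, sterol sensing, sterol transport and fatty acid synthesis, matched by symbol to the probe sets of a bovine Affymetrix array. Of these, 32 had a probe set with that symbol, 50 probe sets in all among the 24016 tested, and a gene with several was represented by its brightest. IDI1, SC5D, STARD4, FADS1 and HSD17B7 had no probe set with that symbol and were not analysed here. The 4 groups of cells from bovine adrenal glands had 3 arrays each. One was untreated, one received interleukin-6 (IL6, 10 nM, 24 h), one received interferon alpha of human sequence (IFNα, 1 nM, 24 h) and one received histamine (10 µM, 6 h). The submitters call the triplicates technical repeats, so p-values measure only the spread between these arrays. The sources used here give neither the number of animals behind the cultures nor the time for which untreated cells were kept.

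Cells build cholesterol from acetyl-CoA through mevalonate, squalene and lanosterol, and fatty acids from the same acetyl-CoA through malonyl-CoA. Both branches are driven by the SREBP transcription factors, encoded by SREBF1 and SREBF2, which SCAP escorts out of the endoplasmic reticulum when sterols are scarce and which INSIG1 and INSIG2 hold back when sterols are plentiful. In the adrenal gland, steroid-making cortical cells take up cholesterol from high-density lipoprotein through SCARB1 and store it as esters made by SOAT1, while chromaffin cells need membrane lipid for their secretory granules.

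Values are log2 expression, and every difference below is on the log2 scale unless a fold is named. A member was called when limma's Benjamini-Hochberg adjusted p, taken over all probe sets, was under 0.05 and the difference was at least 1.5-fold. A member that passed the adjusted p alone, below that fold, is described as higher or lower without being called. No member lay below the lower quartile of any array (5.02 to 5.11), and the pooled SD between arrays of a group had a median of 0.10 over the members, as over all probe sets.

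Marker lists of cell types that the culture could hold and of other states also differed between arrays or groups. Glycolysis and hypoxia genes (16 of 20 listed were measured) stood apart on 3 arrays: relative to untreated cells their mean was 0.81 and 1.21 on IL6 repeats 2 and 3 and 0.89 on IFNα repeat 3, against -0.04 to 0.30 on the other 9 arrays. The sources used here do not say whether these 3 arrays came from cultures of their own, and the standard errors and p-values below take all 3 arrays of a group as alike. Adrenal cortex markers (14 of 18 measured, 1 of them below the lower quartile on every array) lay lower after both cytokines and higher after histamine. Their mean level ran from 7.05 to 7.07 in untreated cells, 6.71 to 6.79 after IL6, 6.63 to 6.64 after IFNα and 7.39 to 7.42 after histamine. Chromaffin cell markers (11 of 15 measured, none below the lower quartile) had a mean level of 11.95 to 12.01 in untreated cells, 11.70 to 11.99 after IL6, 11.91 to 12.21 after IFNα and 12.15 to 12.29 after histamine, where 3 were called higher and 0 lower by limma (at the adjusted p alone 5 higher and 1 lower). Fibroblast and mural cell markers (15 of 15 measured, none below the lower quartile) had 7.92 to 7.95 untreated, 7.91 to 7.92 after IL6, 7.70 to 7.79 after IFNα and 8.17 to 8.22 after histamine. At the adjusted p alone 9 of these 15 were higher and none lower after histamine, and 1 was higher and 6 lower after IFNα. The cortex list and the fibroblast and mural list lay higher after histamine and lower after IFNα on every array. By its mean, the chromaffin list lay higher on every histamine array. Its median change after histamine was 0.05, beside 0.33 for the cortex list and 0.22 for the fibroblast and mural list. The 3 chromaffin markers called higher after histamine were PNMT (2.29), SLC18A2 (0.77) and SCG2 (0.73). Leukocyte markers (16 of 18 measured, 5 below the lower quartile on every array) had 5.41 to 5.46 untreated, 5.59 to 5.69 after IL6, 5.43 after IFNα and 5.5 to 5.6 after histamine. Endothelial markers (14 of 15 measured, 3 below the lower quartile) had 5.74 to 5.78, 5.57 to 5.74, 5.52 to 5.53 and 5.51 to 5.61 in the same order, and Schwann cell markers (6 of 10 measured) 6.68 to 6.77, 6.61 to 6.75, 6.52 to 6.64 and 6.68 to 6.71. The part of these lists in the members' values was not tested. Adipocyte markers (10 of 12 measured, 4 below the lower quartile on every array, among them ADIPOQ at 4.31 to 4.99) had a mean level of 5.24 to 5.43 over all arrays.

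**Figure D1:**
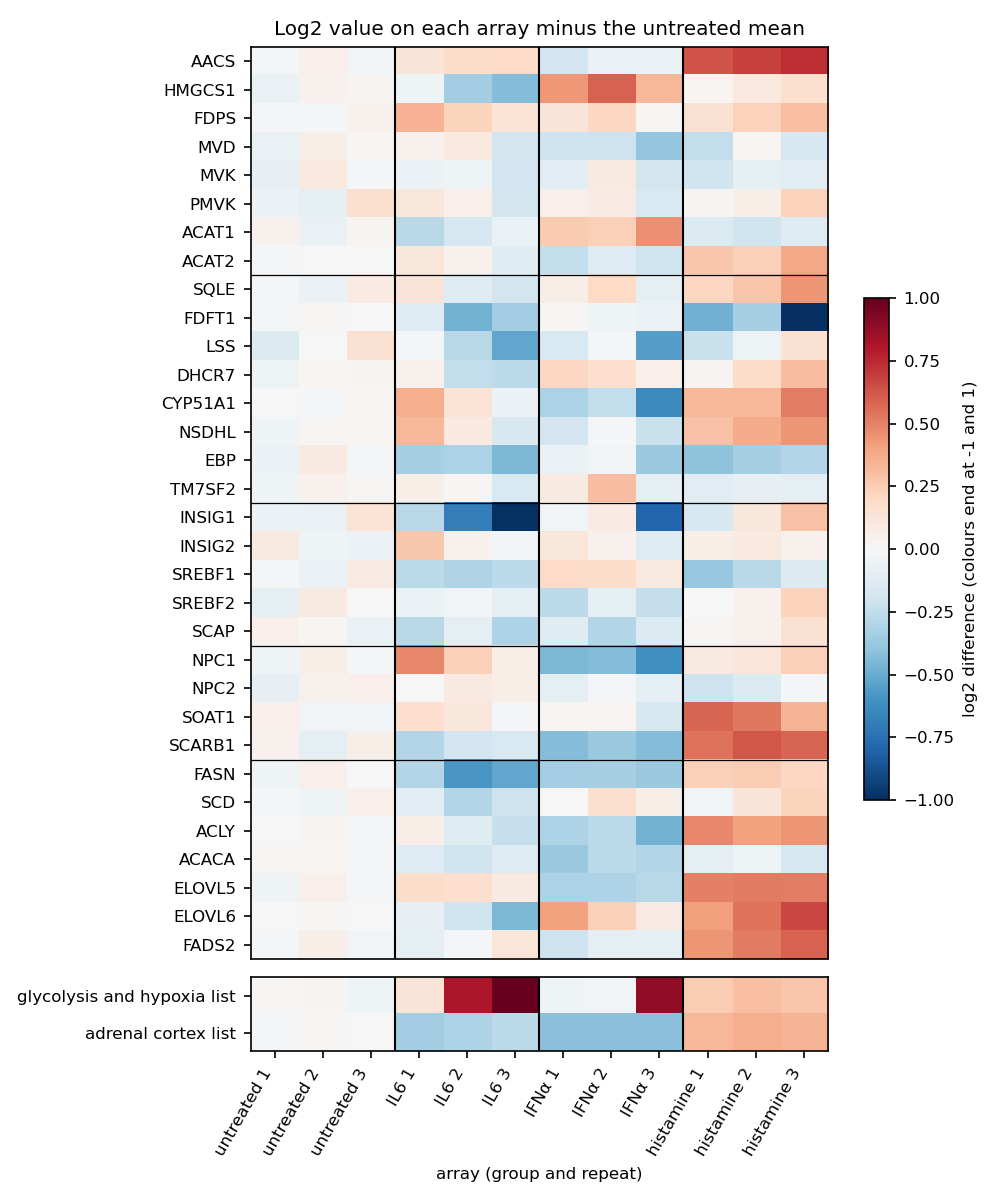
Each row is a sterol or fatty acid gene, ordered by role from the mevalonate segment at the top to fatty acid synthesis at the bottom, and each column is an array; colour gives the log2 value minus the mean of the 3 untreated arrays. The rows under the genes give the mean of the glycolysis and hypoxia list and of the adrenal cortex list, in which IL6 repeats 2 and 3 and IFNα repeat 3 stand out for the first list and all 3 histamine arrays are higher for the second.

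Most members differed somewhere among the 4 groups, but by little. In limma's moderated F test 26 of 32 members passed the adjusted p, as did 49.1% of all probe sets, and INSIG2, LSS, MVD, MVK, PMVK and TM7SF2 did not. Against untreated cells the median absolute log2 change over the members was 0.16 after IL6, 0.17 after IFNα and 0.20 after histamine, beside 0.11, 0.10 and 0.13 over all probe sets. The extremes were INSIG1 after IL6 (-0.66) and AACS after histamine (0.68), so no member reached a 2-fold change after any treatment. The 3 treatment comparisons share the same untreated arrays.

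**Figure D2:**
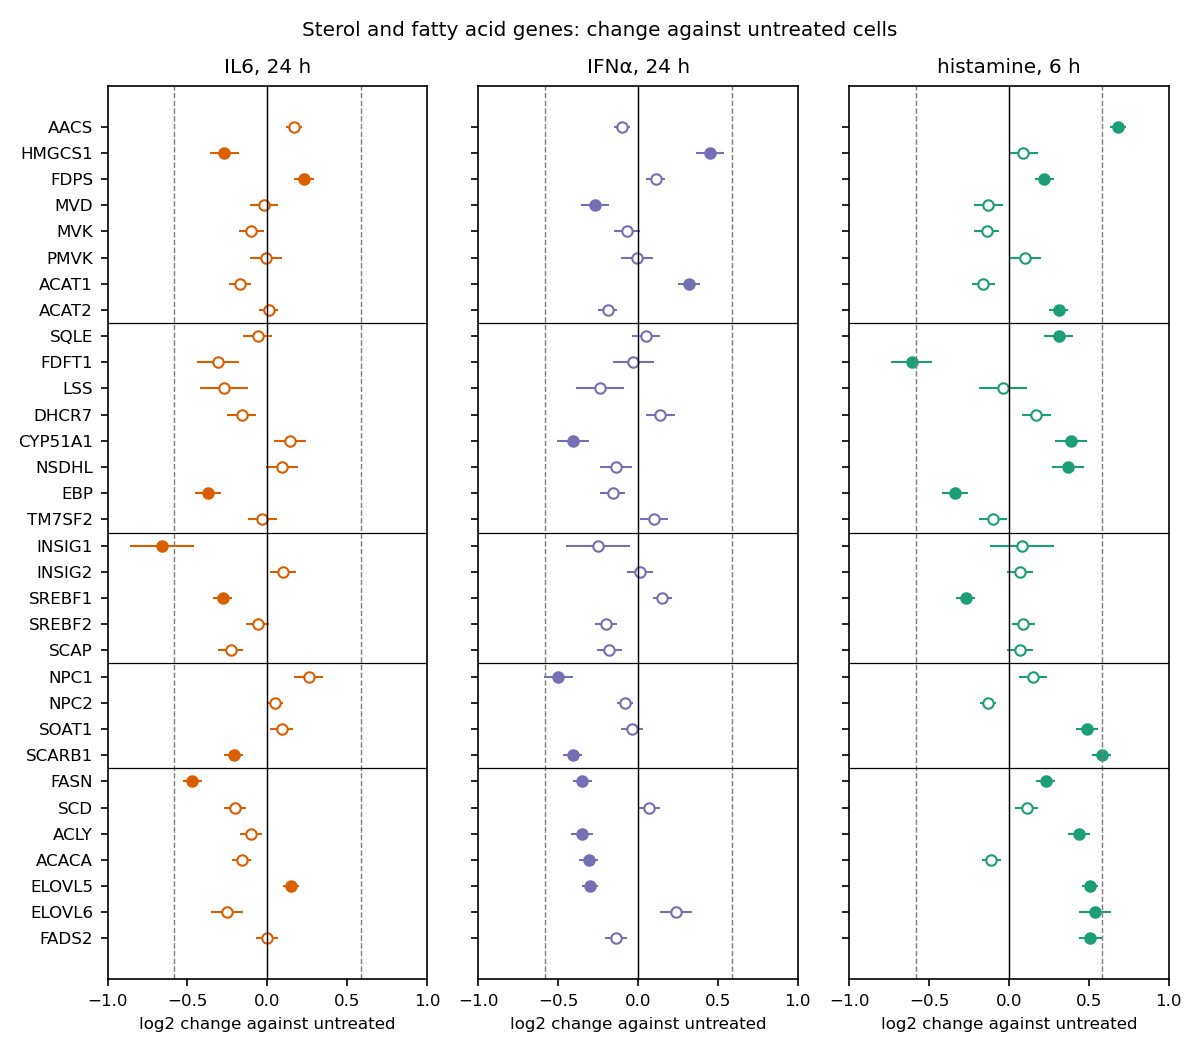
Points are log2 changes against untreated cells with their standard errors for 32 genes, ordered by role; filled points passed the adjusted p of limma, open points did not, and dashed lines mark a 1.5-fold change. After histamine 13 filled points lie to the right of 0 and 3 to the left, after IFNα 2 and 8, and after IL6 2 and 6.

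Histamine for 6 h was the treatment after which most members were higher. Of 32 members, 13 were higher at the adjusted p alone, against 15.1% of all probe sets (40.6% of members), and 3 were lower, against 16.4%. The call was reached by 2 members, against 5.7% of all probe sets, AACS higher (background 2.99%) and FDFT1 lower (background 2.71%). The median change over the members was 0.10, beside 0.00 over all probe sets, and -0.08 and -0.12 after IL6 and IFNα. All 3 histamine arrays lay above every untreated array for 14 of 32 members, against 21.3% of all probe sets. They lay below every untreated array for 7 members, against 22.4%.

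Fatty acid synthesis was the group in which this was most even, with 5 of 7 members higher and none lower at the adjusted p. ACLY, which makes cytosolic acetyl-CoA from citrate, read 11.31, 11.34 and 11.29 on the untreated arrays and 11.79, 11.71 and 11.75 after histamine. All 3 histamine arrays lay above every other array of the series, and the difference was 0.44 (SE 0.07; limma, adjusted p = 0.000115). FASN, the fatty acid synthase that builds palmitate, read 10.89, 10.98 and 10.93 untreated and 11.17, 11.18 and 11.14 after histamine, a smaller difference of 0.23 without overlap. ELOVL5, an elongase of polyunsaturated fatty acids, read 9.16, 9.25 and 9.18 untreated and 9.70, 9.72 and 9.71 after histamine. The 3 histamine values of ELOVL5 were nearly the same (SD 0.01), and the difference of 0.51 (SE 0.05) was far beyond the spread of either group. ELOVL6, which elongates palmitate to stearate, read 6.24, 6.25 and 6.24 untreated and 6.65, 6.78 and 6.91 after histamine, a difference of 0.54. It would pass the fold minimum without histamine repeat 1, with 0.60. FADS2, the delta-6 desaturase, was likewise higher on every histamine array, from 6.90, 6.98 and 6.89 to 7.36, 7.44 and 7.51, with a difference of 0.51 (SE 0.07). SCD, the stearoyl-CoA desaturase, and ACACA, the acetyl-CoA carboxylase that commits acetyl-CoA to this branch, did not pass, with 0.11 and -0.11.

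In the mevalonate segment 3 of 8 members were higher after histamine at the adjusted p and none lower. The squalene and sterol segment went both ways, with 3 of 8 members higher and 2 lower. AACS, which activates acetoacetate in the cytosol for lipid synthesis, read 8.60, 8.67 and 8.59 untreated and 9.25, 9.30 and 9.36 after histamine. Its histamine arrays lay above all others, and it rose 1.61-fold (log2 change 0.68, SE 0.05; limma, adjusted p = 3.8e-07). A second, dimmer AACS probe set (mean 6.38) had 0.19 and did not pass (limma, adjusted p = 0.361). The mean of both gave 0.43, below the fold minimum. ACAT2, the cytosolic thiolase that opens the pathway, was 0.31 higher, FDPS, which makes farnesyl diphosphate, 0.22 higher, and SQLE, the squalene epoxidase, 0.31 higher. FDPS no longer passed without histamine repeat 3, nor SQLE without histamine repeat 3 or untreated repeat 2. CYP51A1, the lanosterol demethylase, read 9.32, 9.31 and 9.34 untreated and 9.65, 9.65 and 9.83 after histamine. NSDHL, which acts soon after it, read 8.15, 8.20 and 8.21 untreated and 8.48, 8.56 and 8.63 after histamine. Neither gene overlapped between the groups, with differences of 0.39 (SE 0.10) and 0.37.

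FDFT1, the squalene synthase that commits farnesyl diphosphate to sterols, moved the other way. It read 9.85, 9.88 and 9.87 on the untreated arrays and 9.39, 9.54 and 8.84 after histamine. All 3 histamine arrays were lower, but unevenly, and repeat 3 was far below the others. FDFT1 fell by 0.61 (SE 0.13; limma, adjusted p = 0.00226), and by 0.40 without histamine repeat 3, no longer 1.5-fold. A second probe set of FDFT1 (mean 8.68) was lower, with -0.33 (SE 0.05; limma, adjusted p = 0.000103), whereas the remaining, dim probe set (mean 3.83) did not pass the adjusted p. EBP, the sterol isomerase, was also lower, from 9.32, 9.47 and 9.36 to 8.98, 9.05 and 9.09, with -0.34. HMGCS1, the cytosolic HMG-CoA synthase, had 0.09 and did not pass, and MVD, MVK, PMVK, ACAT1, LSS, DHCR7 and TM7SF2 did not pass either, with changes from -0.16 to 0.17.

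Among genes of sterol transport, SCARB1 and SOAT1 were higher after histamine. SCARB1 read 8.68, 8.54 and 8.70 untreated and 9.18, 9.26 and 9.22 after histamine, above every other array. Its difference of 0.58 (SE 0.06; 1.49-fold; limma, adjusted p = 3.57e-06) lay just below the fold minimum, and it passed without untreated repeat 1, untreated repeat 3 or histamine repeat 1 (0.60 to 0.61). SOAT1 read 8.60, 8.52 and 8.52 untreated and 9.13, 9.08 and 8.89 after histamine, a difference of 0.49 (SE 0.07) without overlap. NPC1 and NPC2, which carry cholesterol out of lysosomes, had 0.15 and -0.13 and did not pass. Adrenal cortex markers moved the same way as SCARB1: 3 of 14 were called higher after histamine and 0 lower by limma, and at the adjusted p alone 8 were higher and none lower, among them CYP11A1 and HSD3B1, which rose 1.91-fold and 1.77-fold. The part of these markers in the SCARB1 values was not tested, and in a whole culture a change in the number of cells of a type and a change in RNA per cell cannot be told apart.

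**Figure D3:**
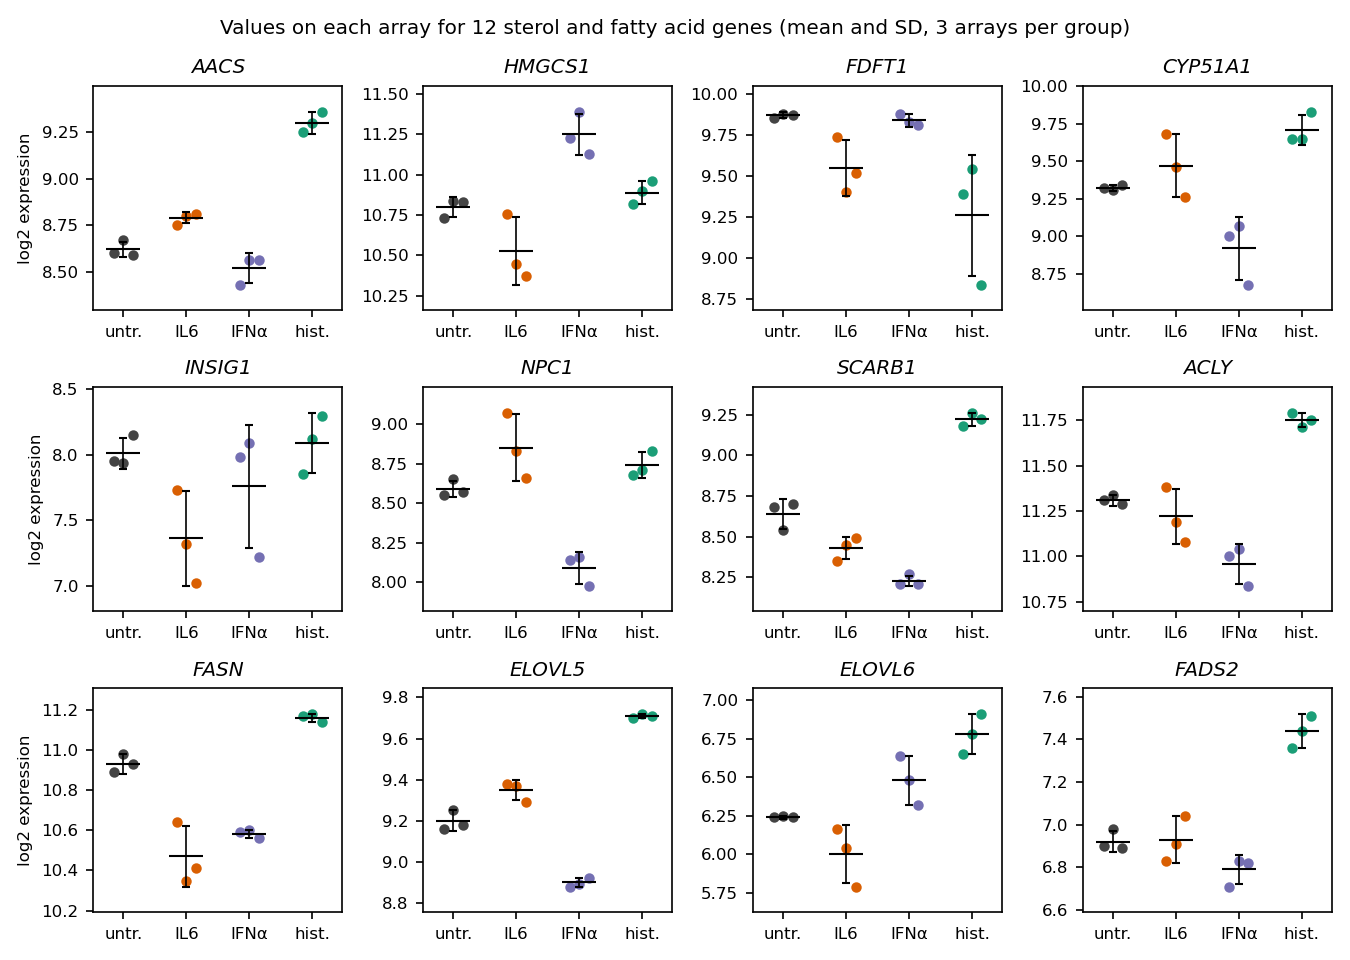
Each panel shows the log2 value of a gene on the 12 arrays, with repeats 1 to 3 from left to right in each group, and the mean and SD of the group in black; the vertical axes differ between panels and do not start at 0. AACS, SCARB1, ACLY, FASN, ELOVL5, ELOVL6 and FADS2 have all 3 histamine arrays above every other array, ELOVL6 by little. HMGCS1 has its highest values after IFNα. Of all probe sets, 21.3% had all 3 histamine arrays above every untreated array.

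After IFNα for 24 h 0 members were called by limma, against 3.36% of all probe sets (2.18% higher and 1.18% lower), while 15 of 32 had an unadjusted p under 0.05. At the adjusted p alone 8 members were lower, against 9.99% of all probe sets, and 2 were higher, against 6.74%. Lower were the fatty acid genes ACLY, FASN, ACACA and ELOVL5, the sterol enzymes CYP51A1 and MVD, and the transport genes NPC1 and SCARB1. Higher were HMGCS1 and ACAT1, the mitochondrial thiolase, which works in ketone body and amino acid breakdown rather than in the cytosolic pathway.

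HMGCS1 read 10.73, 10.84 and 10.83 untreated and 11.23, 11.39 and 11.13 after IFNα. Its IFNα arrays were the highest of the series, with a difference of 0.45 (SE 0.09; limma, adjusted p = 0.00178). A second HMGCS1 probe set (mean 6.26) gave 0.47, also past the adjusted p. NPC1 read 8.55, 8.65 and 8.57 untreated and 8.14, 8.16 and 7.98 after IFNα, the lowest values of the series. NPC1 had the lowest change of the members after IFNα, -0.50 (SE 0.09; limma, adjusted p = 0.00102), which is under 1.5-fold. SCARB1 read 8.21, 8.27 and 8.21 after IFNα, below every untreated array, with -0.41 (SE 0.06). Of 14 adrenal cortex markers, 5 were called lower after IFNα and 0 higher by limma, and 7 were lower at the adjusted p alone, with none higher. Their part in the SCARB1 value was not tested.

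Among the fatty acid genes, 4 of 7 were lower after IFNα, by 0.30 to 0.35. ACLY read 11.0, 11.04 and 10.84, with -0.35, and FASN read 10.59, 10.60 and 10.56, also with -0.35 (SE 0.06; limma, adjusted p = 0.000612). ELOVL5 read 8.88, 8.89 and 8.92, with -0.30, and ACACA read 6.62, 6.73 and 6.70 against 7.0, 7.01 and 6.97 untreated, with -0.31. A second ACACA probe set (mean 5.40) gave -0.39. ACLY, FASN, ELOVL5 and ACACA each lay below untreated cells on every IFNα array, as did 19.6% of all probe sets. CYP51A1 read 9.0, 9.07 and 8.68, lowest on the IFNα array with raised hypoxia genes. Its change was -0.41 (SE 0.10) with all arrays, no longer past the adjusted p without untreated repeat 3 or IFNα repeat 3. With all 3 arrays of raised hypoxia genes left out it was -0.29 and passed. MVD, the diphosphomevalonate decarboxylase, had -0.27 and lay at the threshold (limma, adjusted p = 0.0499), and passed neither without those 3 arrays (-0.21, adjusted p = 0.0937) nor in 8 of 12 fits that left out 1 array, the exceptions being IL6 repeat 1, IL6 repeat 3, histamine repeat 1 and histamine repeat 2.

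After IL6 for 24 h 1 member was called, against 2.39% of all probe sets (1.44% higher), namely INSIG1, lower (background 0.949%). At the adjusted p alone 6 members were lower, against 10.7% of all probe sets (18.8% of members), and 2 were higher, against 6.68%. The lower count was 3 without untreated repeat 1 or untreated repeat 3, and the higher count ran from 0 to 4 when an array was left out. It was 0 without untreated repeat 1 or IL6 repeat 2, 1 without untreated repeat 2 or 3, IL6 repeat 1, IFNα repeat 2 or histamine repeat 2, and 4 without IFNα repeat 3. It was 3 without IL6 repeat 3, IFNα repeat 1 or histamine repeat 3. The 2 higher members were FDPS (0.23) and ELOVL5 (0.15). With the 3 arrays of raised hypoxia genes left out, 5 were higher, namely FDPS, INSIG2, CYP51A1, NSDHL and NPC1.

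INSIG1, which retains the SREBP escort SCAP in the endoplasmic reticulum and is itself an SREBP target, read 7.95, 7.94 and 8.15 untreated and 7.73, 7.32 and 7.02 after IL6. All IL6 arrays were lower, repeat 1 only a little and repeats 2 and 3 much more. INSIG1 fell by 0.66 (SE 0.20; limma, adjusted p = 0.0401). The call was lost without any of the untreated arrays, IL6 repeat 2, IL6 repeat 3 or histamine repeat 2 (log2 change -0.69 to -0.49; adjusted p 0.0546 to 0.163). With the 3 arrays of raised hypoxia genes left out, which leaves IL6 repeat 1 alone and assumes that it varies like the other groups, the change was -0.28 (adjusted p = 0.241). After IFNα INSIG1 read 7.98, 8.09 and 7.22, of which the last is the array with raised hypoxia genes. After histamine it read 7.85, 8.12 and 8.30, overlapping the untreated values.

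FASN gave the firmest difference after IL6. It read 10.64, 10.35 and 10.41, below all untreated arrays, with -0.47 (SE 0.06; limma, adjusted p = 7.12e-05), and with -0.29 (limma, adjusted p = 0.00099) when the 3 arrays of raised hypoxia genes were left out. EBP read 9.05, 9.06 and 8.93, with -0.37, and -0.33 without those arrays. SREBF1, which encodes the SREBP that favours fatty acid genes, read 10.02, 9.97 and 10.11 untreated and 9.76, 9.73 and 9.77 after IL6, with -0.28 (SE 0.06; limma, adjusted p = 0.00465). SREBF1 was also lower after histamine (9.65, 9.75 and 9.89, with -0.27) and read 10.22, 10.21 and 10.12 after IFNα, where its change of 0.15 did not pass. Of its 3 other probe sets, 2 were lower after IL6 at the adjusted p (-0.20 and -0.38) and 1 after histamine (-0.27). SCARB1 read 8.35, 8.45 and 8.49 after IL6, with -0.21, which no longer passed without untreated repeat 1, untreated repeat 3, IL6 repeat 1 or IL6 repeat 2. It stood beside adrenal cortex markers of which 3 of 14 were called lower and 0 higher by limma (6 lower and 1 higher at the adjusted p alone); their part was not tested. HMGCS1 read 10.76, 10.45 and 10.37, of which repeat 1 lay among the untreated values. Its -0.27 (limma, adjusted p = 0.0416) no longer passed without any 1 of the untreated arrays. Nor did it pass without IL6 repeat 2, IL6 repeat 3, IFNα repeat 1 or histamine repeat 2. It was -0.04 with the 3 arrays of raised hypoxia genes left out. The second HMGCS1 probe set (mean 6.26) had -0.56 after IL6 (limma, adjusted p = 0.00621), below the fold minimum. Its values without single arrays are not given here.

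Within each cytokine group, most members were lower on the arrays on which hypoxia genes were raised; the part of the hypoxia state in this was not tested. On IFNα repeat 3, 26 of 32 members were lower than the mean of repeats 1 and 2, with a median difference of -0.15, whereas 52.2% of all probe sets were lower, with a median of -0.01. On IL6 repeats 2 and 3, 25 of 32 members were lower than on repeat 1, with a median of -0.14, beside 50.6% of all probe sets. INSIG1 and LSS, the lanosterol synthase, differed most in both groups: by -0.82 and -0.47 on the IFNα array and by -0.56 and -0.39 on the IL6 arrays. CYP51A1 had -0.36 and -0.32, NSDHL -0.12 and -0.36, and FASN -0.03 and -0.26. These are differences between arrays that the labels call repeats of the same treatment, and they carry no test. A one-sided shift, in the other direction, was also present on histamine repeat 3. There only 6 of 32 members were lower than the mean of repeats 1 and 2, with a median difference of 0.11. Of all probe sets 43.3% were lower, with a median of 0.02. On untreated repeat 3, 13 of 32 members were lower than the mean of repeats 1 and 2, with a median of 0.01, beside 50.9% of all probe sets.

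The cytokines were given for the same time. Between IL6 and IFNα 14 of 32 members passed the adjusted p, 8 of them higher after IL6 (background 13.7%) and 6 lower (background 14.8%). The higher count was 5 without IL6 repeat 2 or IFNα repeat 1. The call was reached by HMGCS1, lower (background 3.29%), and NPC1, higher (background 2.82%), against 6.11% of all probe sets in either direction.

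HMGCS1 was 1.65-fold lower after IL6 than after IFNα (log2 difference -0.72, SE 0.09; limma, adjusted p = 1.42e-05), and its second probe set gave -1.03. With the 3 arrays of raised hypoxia genes left out the difference was -0.55 (limma, adjusted p = 9.1e-05), below the fold minimum. NPC1 read 9.07, 8.83 and 8.66 after IL6, all above its IFNα arrays. It was 1.69-fold higher after IL6 than after IFNα (log2 difference 0.76, SE 0.09; limma, adjusted p = 1.17e-05), and 0.92 without those arrays. CYP51A1 read 9.68, 9.46 and 9.26 after IL6, and lay 0.55 above the IFNα group. This passed the fold minimum without IL6 repeat 3, IFNα repeat 1 or IFNα repeat 2 (0.59 to 0.65). ELOVL5 differed by 0.45 and AACS by 0.27, both higher after IL6, whereas ACAT1 (-0.49), ELOVL6 (-0.48), SREBF1 (-0.43), DHCR7, the last enzyme of cholesterol synthesis (-0.30), and SCD (-0.28) were lower after IL6. DHCR7 no longer passed without IL6 repeat 2, IL6 repeat 3, IFNα repeat 1 or IFNα repeat 2. The other SREBF1 probe sets had -0.13, -0.28 and 0.06 between the cytokines, of which only the one with -0.28 passed. INSIG1 had -0.41 and did not pass, but passed the call without IL6 repeat 1 (-0.59) or IFNα repeat 3 (-0.68).

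Histamine was also set against each cytokine, where dose and time differ as well (6 h against 24 h) and both comparisons rest on the same histamine arrays. Against IL6, 16 of 32 members were higher after histamine at the adjusted p, beside 18.1% of all probe sets, and 1, NPC2, was lower (background 14.8%), which no longer passed without IL6 repeat 2, IL6 repeat 3, histamine repeat 1 or histamine repeat 2. With the 3 arrays of raised hypoxia genes left out 9 members were higher. INSIG1, FASN, ELOVL6 and SCARB1 reached the call as higher (background 3.49%, and 6.2% in either direction), and 0 as lower by limma (background 2.71%; unadjusted p under 0.05 for 2). The differences of the 4 were 0.73, 0.70, 0.78 and 0.79. The INSIG1 call was lost without IL6 repeat 3 (0.57) or histamine repeat 3 (0.63), and those of INSIG1 and FASN with the 3 arrays of raised hypoxia genes left out (0.36 and 0.52). Against IFNα, 16 members were higher after histamine, beside 19.8% of all probe sets, and HMGCS1, FDFT1, SREBF1 and ACAT1 were lower (background 17.3%). The other SREBF1 probe sets had -0.02, -0.18 and 0.17 against IFNα and did not pass.

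AACS, CYP51A1, ACLY, ELOVL5, FADS2, NPC1 and SCARB1 reached the call as higher after histamine than after IFNα (background 4.91%, and 9.49% in either direction). By limma 0 members reached it as lower (background 4.58%), where 5 had an unadjusted p under 0.05. SCARB1 showed the widest of these differences, at 1.99-fold (log2 difference 0.99, SE 0.06; limma, adjusted p = 6.01e-09). ELOVL5 followed with 0.81 (SE 0.05), and AACS, CYP51A1 and ACLY had 0.79 each. The dimmer AACS probe set had 0.06 against IFNα, and the mean of both gave 0.42, below the fold minimum. All 7 fatty acid genes lay above 0 in both comparisons, with medians of 0.51 against IL6 and 0.58 against IFNα, and 6 of 7 passed the adjusted p in each. Beside SCARB1, the cortex marker HSD3B1, a steroid dehydrogenase, read 9.06, 8.97 and 8.94 after histamine, 7.37, 7.38 and 7.40 after IL6 and 7.44, 7.27 and 7.35 after IFNα. Of 14 cortex markers, 6 were called higher against IL6 and 7 against IFNα (background 3.49% and 4.91%). The others were not called, among them MC2R (0.10 and 0.26). The cortex list had medians of 0.44 and 0.54, and the fibroblast and mural list 0.24 and 0.35. The part of either list in the SCARB1 values was not tested.

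Among the sterol sensors besides INSIG1, changes were small. INSIG2 read from 9.18 to 9.58 over the 12 arrays, with changes of 0.10, 0.01 and 0.07 after IL6, IFNα and histamine, and its groups overlapped throughout. With the 3 arrays of raised hypoxia genes left out, INSIG2 passed the adjusted p after IL6 (0.27, SE 0.07; limma, adjusted p = 0.021), which then rests on IL6 repeat 1 alone. SREBF2, which encodes the SREBP that favours cholesterol genes, had -0.06, -0.20 and 0.09, and SCAP had -0.23, -0.18 and 0.07, none of them past the adjusted p. SREBF2 was 0.29 and SCAP 0.25 higher after histamine than after IFNα at the adjusted p, the latter not without IFNα repeat 2 or histamine repeat 3. In that comparison the other probe set of SREBF2 had 0.07 and those of SCAP 0.02, 0.11 and -0.09. None of these passed the adjusted p. Among the enzymes, PMVK, the phosphomevalonate kinase, had -0.01, -0.01 and 0.10, and TM7SF2, a sterol reductase, had -0.03, 0.10 and -0.10. MVK, the mevalonate kinase, had -0.10, -0.07 and -0.14 on its brightest probe set, whereas a dimmer one (mean 5.58) had -0.53 after histamine at the adjusted p.

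Closest to the fold minimum, FDFT1 (-0.61), INSIG1 after IL6 (-0.66) and AACS (0.68) lay just inside it against untreated cells. SCARB1 (0.58), ELOVL6 (0.54), ELOVL5 (0.51) and FADS2 (0.51) after histamine and NPC1 after IFNα (-0.50) lay just outside.

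Other genes of the same pathways, taken from lists of names, included larger single changes than those of the members. Of 8 measured genes of sterol synthesis and SREBP processing, 1 was called after IFNα and 1 after histamine, beside 3.36% and 5.7% of all probe sets. MBTPS1, the site-1 protease that cuts SREBPs in the Golgi, read 10.77, 10.65 and 10.74 untreated, 10.32, 10.26 and 10.16 after IL6, 10.07, 9.95 and 9.86 after IFNα, and 10.47, 10.49 and 10.56 after histamine. The untreated arrays were the highest and the IFNα arrays the lowest, and MBTPS1 fell by 0.76 after IFNα (SE 0.06; limma, adjusted p = 2.06e-07). ERLIN1, an endoplasmic reticulum protein that takes part in sterol-regulated degradation, rose 1.58-fold after histamine, from 6.48, 6.57 and 6.57 to 7.25, 7.20 and 7.14. After IL6 limma called 0 of these 8 (background 2.39%). At the adjusted p alone 2 were lower and none higher after IL6 (background 10.7% and 6.68%). After histamine 3 were lower and 1 higher at the adjusted p alone (background 16.4% and 15.1%). After IFNα 1 was lower and none higher (background 9.99% and 6.74%).

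Among 16 measured genes of cholesterol uptake, efflux and storage, VLDLR and MYLIP were called after IL6, LIPA after IFNα and VLDLR after histamine, beside 2.39%, 3.36% and 5.7% of all probe sets called in these comparisons. At the adjusted p alone 4 of the 16 were lower and 1 higher after histamine (background 16.4% and 15.1%). After IL6 these counts were 3 and 1 (background 10.7% and 6.68%), and after IFNα 2 and 1 (background 9.99% and 6.74%). LIPA, the lysosomal acid lipase that frees cholesterol from its esters, read 8.33, 8.32 and 8.20 untreated and 9.40, 9.41 and 9.36 after IFNα. It rose 2.15-fold after IFNα (log2 change 1.11, SE 0.07; limma, adjusted p = 3.26e-08) and had -0.33 and -0.28 after IL6 and histamine. NPC1, which acts after LIPA in the lysosome, was lower on the same IFNα arrays, as given above. MYLIP, a ubiquitin ligase that degrades lipoprotein receptors, read 8.49, 8.34 and 8.52 untreated and 7.65, 7.54 and 7.29 after IL6, without overlap. It fell by 0.96 (SE 0.11; limma, adjusted p = 2.72e-05), and by 0.80 with the 3 arrays of raised hypoxia genes left out. Its other probe set had -0.25 and was not called.

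VLDLR, a receptor of triglyceride-rich lipoproteins, read 9.19, 9.20 and 9.12 untreated, 10.10, 10.44 and 10.65 after IL6, and 10.91, 10.92 and 10.89 after histamine. It rose 3.33-fold after histamine (log2 change 1.74, SE 0.21; limma, adjusted p = 2.02e-05) and 2.34-fold after IL6. After IFNα it read 8.96, 9.01 and 10.06, high on the array with raised hypoxia genes alone, and the IL6 change was 0.93 without the 3 such arrays. Its 3 other probe sets were not called after IL6 or histamine (-0.01 to 0.55), and the mean over all its probe sets gave 0.43 after IL6.

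Of 27 measured genes of fatty acid, triglyceride and phospholipid synthesis, 4 were called higher and 1 lower after histamine, beside 2.99% and 2.71% of all probe sets. After IFNα 1 was called higher and 2 lower (background 2.18% and 1.18%). After IL6 limma called 0 higher and 1 lower (background 1.44% and 0.949%). At the adjusted p alone 4 were higher and 6 lower after IL6 (background 6.68% and 10.7%). These counts were 9 and 4 after histamine (background 15.1% and 16.4%) and 1 and 5 after IFNα (background 6.74% and 9.99%). ACSL6, an acyl-CoA synthetase of neural tissue, read 10.74, 10.80 and 10.73 untreated, 11.26, 11.34 and 11.28 after IL6, 10.14, 10.22 and 10.26 after IFNα, and 11.89, 11.96 and 12.05 after histamine. No group of ACSL6 overlapped another, and it rose 2.31-fold after histamine (SE 0.05 on the log2 scale; limma, adjusted p = 2.52e-10). FABP3 and FABP5, fatty acid binding proteins, rose 2.06-fold and 1.78-fold after histamine. A second FABP5 probe set had 0.37 after histamine, past the adjusted p but not called. FITM2, which helps to form lipid droplets, read 9.10, 9.05 and 9.06 untreated and 7.53, 7.50 and 7.31 after IFNα, and fell by 1.62 (SE 0.06; limma, adjusted p = 2.62e-11). ACSL5, another acyl-CoA synthetase, rose 1.78-fold after IFNα. THRSP, a nuclear protein tied to lipogenesis, fell after all 3 treatments, by 0.65 after IL6, 0.65 after IFNα and 0.95 after histamine. It was dim, with 5.84, 6.05 and 5.98 untreated, 5.45, 5.39 and 5.09 after IL6 and 5.38, 5.34 and 5.19 after IFNα. After histamine it read 4.92, 4.94 and 5.15, near the lower quartile of the arrays (5.02 to 5.11). The IL6 call of THRSP was lost without IL6 repeat 3 (-0.54) and with the 3 arrays of raised hypoxia genes left out (-0.51).

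**Figure D4:**
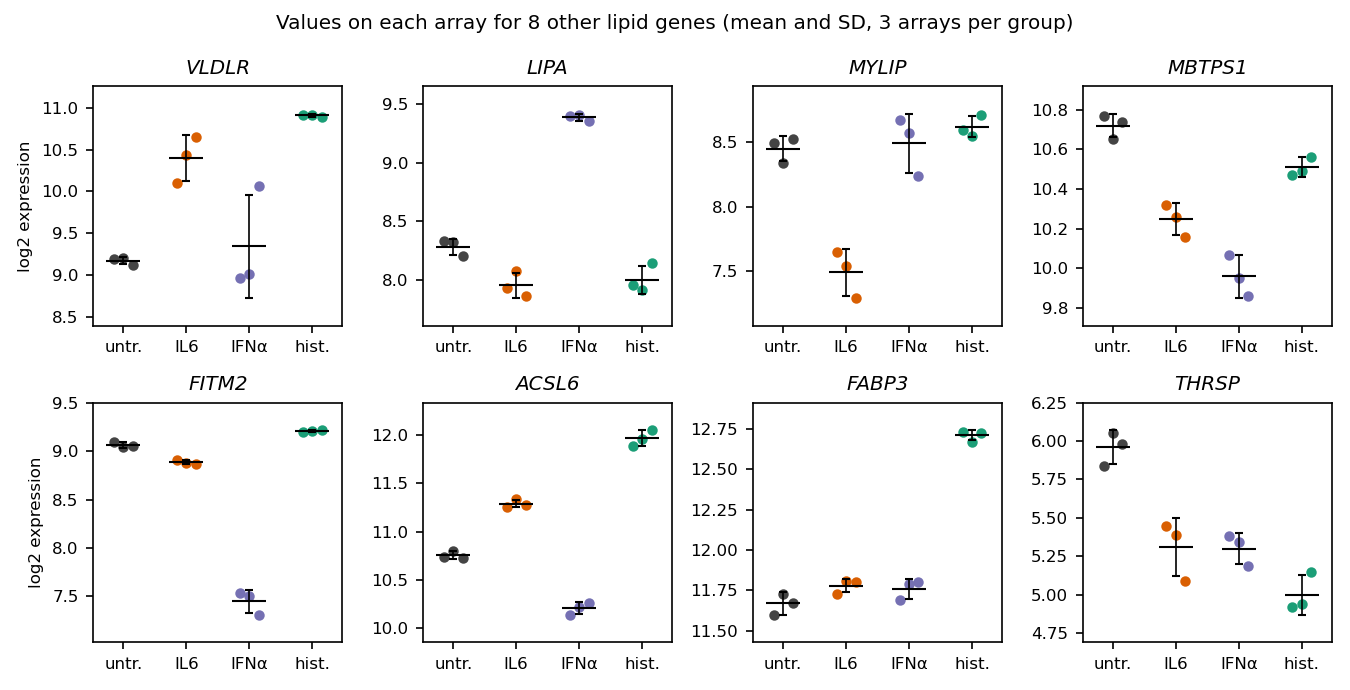
Each panel shows the log2 value of a lipid gene outside the main list on the 12 arrays, with repeats 1 to 3 from left to right in each group and the mean and SD in black; the vertical axes differ between panels and do not start at 0. LIPA is high after IFNα alone, FITM2 low after IFNα alone, ACSL6 separates all 4 groups, and VLDLR has 1 high IFNα array.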

How the data were processed

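Biotin-labelled total RNA from cultured chromaffin cells was read on 12 one-colour Affymetrix arrays, per the labels. The deposited values are log2 expression per probe set, from RMA per the submitters' processing notes, with settings that the sources used here do not give. RMA compresses fold changes of dim transcripts. The mean of each array was 6.79, and precision is limited by the 3 arrays per group.

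Of 24128 probe sets, 112 controls were left out and 24016 tested. Names came from the platform annotation, updated through cattle gene identifiers. Fits used limma 3.58.1 in R 4.3.3: a mean per group over all 12 arrays, eBayes with a mean-variance trend, Benjamini-Hochberg adjustment over all probe sets, and calls at an adjusted p under 0.05 and 1.5-fold. The fit was tested on simulated data. SDs describe the 3 arrays within a group.

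The members, gene lists and the setting without 3 arrays were chosen with earlier results of these data known. By rule, array values were given for called members and for up to 4 called genes of each pathway list per comparison; the array values of other members were added after their values were seen. The alternatives listed in the closing section changed 1 choice at a time. Figures were drawn with matplotlib 3.10.9.

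Same-numbered repeats were not treated as pairs in the main fit. Of 18 correlations of their deviations from the group means, 6 were over 0.1 (range -0.07 to 0.60). The highest were between IL6 and IFNα, with 0.53 for repeat 1 and 0.60 for repeat 3, so these arrays deviated together.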

Additional observations from a re-analysis of the deposited data

Results flagged for a closer look

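Several members moved in opposite directions after 2 treatments, with each change and the difference between the treatments past limma's adjusted p. Between the cytokines, HMGCS1 was lower after IL6 and higher after IFNα (difference -0.72, adjusted p = 1.42e-05), and ELOVL5 was higher after IL6 and lower after IFNα (0.45, adjusted p = 3.26e-06). With the 3 arrays of raised hypoxia genes left out the IL6 change of HMGCS1 was -0.04 and that of ELOVL5 0.18 (adjusted p = 0.0689), and neither passed against untreated cells.

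FASN and SCARB1 were higher after histamine and lower after IL6, with differences of 0.70 and 0.79. Both were also lower after IFNα, with differences from histamine of 0.58 and 0.99. CYP51A1, ACLY and ELOVL5 were higher after histamine and lower after IFNα, with differences of 0.79, 0.79 and 0.81. Histamine was given for 6 h and the cytokines for 24 h, so agent and time cannot be told apart in these differences.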

How the results depend on the processing

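Of 4212 member values recomputed at the 1.5-fold minimum, 21 lost a call, 26 gained 1, 110 uncalled values changed sign, and no called value reversed. The cause was not tested for any of the counts below, other than the fold minimums. Without a fold minimum the called probe sets were 4170 after IL6, 4017 after IFNα, 7581 after histamine, 6839 between the cytokines, 7901 between histamine and IL6 and 8915 between histamine and IFNα, with 8, 10, 16, 14, 17 and 20 members. With a 2-fold minimum they were 149, 322, 253, 549, 333 and 723, with 0 members by limma in each comparison (unadjusted p under 0.05 for 16, 15, 18, 19, 19 and 21 members). INSIG1 was not called after IL6, leaving 0 called members, without the eBayes trend, with robust eBayes, with cyclic loess and with the 3 arrays of raised hypoxia genes left out. Members higher after IL6 at the adjusted p numbered 2, but 1 without the trend or in a fit of the compared groups alone, 4 with robust eBayes, array weights, median centring, cyclic loess or the dimmer probe sets left out, and 5 without the 3 arrays. Members lower after IL6 numbered 6, but 14 with array weights and 3 with cyclic loess. Array weights also gave 5 higher members after IFNα, 5 lower after histamine and 12 lower between the cytokines. Without the 3 arrays 4 members were higher after IFNα and 9 between histamine and IL6. When every probe set of a gene was averaged, 0 members were called after histamine, and 2 were lower between histamine and IL6. With array weights or median centring FDFT1 missed the fold minimum (-0.47 and -0.58), and SCARB1 passed it (0.59 and 0.61). With the repeat number as a replicate block, 4 members were higher after IL6, and no other count of members or probe sets moved by over 1.5 times. Leaving out each array in turn gave 0 to 1 called members, 0 to 4 higher and 3 to 9 lower after IL6, 1 to 4 called after histamine, 5 to 8 higher between the cytokines, and 0 to 1 lower between histamine and IL6. The planned search of promoters for motifs was not run, as no sequences were used here. The values carry no detection calls, and differences under about 1.5-fold rest on arrays that the submitters call technical repeats, of which 3 stand apart in hypoxia genes.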
